A study of Mus musculus with 15 samples.

Results

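The large intestine was set against the jejunum, the middle section of the small intestine, over all genes of a deposited table of RNA-seq values. Of 23349 genes in the table, 13057 were kept, those that reached 1 FPKM in at least 3 of the 6 libraries compared. FPKM is a level of fragments scaled to the length of the transcript and to the fragments mapped in its library, so levels of different genes can be set side by side. The large intestine group and the jejunum group each held 3 libraries, from male wild-type C57BL/6 mice aged 2 to 3 months, and the labels name no treatment. They belong to a series of 15 libraries from 5 tissues, the others being duodenum, ileum and liver, which was made to set the genes of xenobiotic processing along the intestine beside those of the liver. Each library is total RNA of a section of the gut wall from which the contents had been flushed, so epithelium, immune cells, muscle and nerves were measured together. In such bulk samples, fewer cells of a type and less RNA per cell cannot be told apart. Libraries are named by their tissue and the number in their title. Values in the large intestine are given in the order of libraries 24, 25 and 27, and values in the jejunum in the order of libraries 24, 27 and 28.

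The jejunum absorbs most sugars, peptides and fats, through enterocytes on villi whose brush border carries digestive enzymes, and Paneth cells at the base of its crypts secrete antimicrobial peptides. The large intestine has no villi. Its colonocytes take up salt, water and the short-chain fatty acids that bacteria make from fibre, and its many goblet cells build the mucus that keeps the bacteria from the tissue. Hox genes, which encode transcription factors laid out along the chromosome in the order in which they act along the body, mark position along the gut.

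Whether the 3 libraries of a tissue are from 3 different mice is not in the labels, and a p-value then only speaks for the spread among these libraries, some of which may be technical. Read counts are not in the table, so library depth is unknown. The FPKM of a library summed to between 384287 and 389243 in the large intestine and to between 505586 and 541581 in the jejunum, and the 10 highest genes held between 10.6% and 14.6% of that sum in the large intestine and between 21.3% and 25.5% in the jejunum. The library labelled jejunum 24 stood apart from the other 2 jejunum libraries. Fabp6, the bile acid binding protein of the ileum, was at 6731 FPKM there, against 23.1 FPKM in jejunum 27 and 5.61 FPKM in jejunum 28, and was at 6597 FPKM in ileum 25 and 8112 FPKM in ileum 27. Lct, the lactase of the proximal small intestine, was at 15.5 FPKM in jejunum 24, against 192 FPKM in jejunum 27 and 245 FPKM in jejunum 28. Ileum 24 differed from the other ileum libraries the opposite way, with 256 FPKM of Fabp6 and 232 FPKM of Lct. Jejunum 24 was kept under its label, and the counts of the lists described are also given without it where they differ.

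A difference is given as the log2 difference, large intestine minus jejunum, of FPKM + 1, which understates the change of genes with low values. A gene was called where the limma test across all 13057 genes gave an adjusted p under 0.05 and the size of the log2 difference was 1 or more. By that rule 1663 genes, or 12.7%, were called, 991 of them (7.59%) higher in the large intestine and 672 (5.15%) lower. Without jejunum 24 the numbers were 1231 (9.43%) higher and 774 (5.93%) lower, and 974 of the 991 and 649 of the 672 were called there too. All 3 large intestine libraries lay above all 3 jejunum libraries for 34.3% of the 13057 genes and below them for 19.6%, together 53.9%. Groups without overlap were thus common, and where they are named for single genes they only describe the values. A gene could also pass the filter through the 3 libraries of a single tissue. For lists whose members are near 0 in the other tissue, the count of calls in a direction then only describes the values. Large differences were more often towards the jejunum. A log2 difference of at least 5 was reached by 25 of the genes called higher and by 85 of those called lower, whereas a size of at least 2 was reached by 259 genes called higher and 307 called lower. The balance of the calls rests on the scale of the libraries. The median log2 difference over all genes was 0.11 as deposited, and -0.02 after median-of-ratios scaling, 0.02 after quantile normalization and 0.49 where all libraries were brought to the same sum. The same sum gave 1963 genes higher and 484 lower, so that 80.2% of calls were higher, against 59.6% as deposited.

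**Figure D1:**
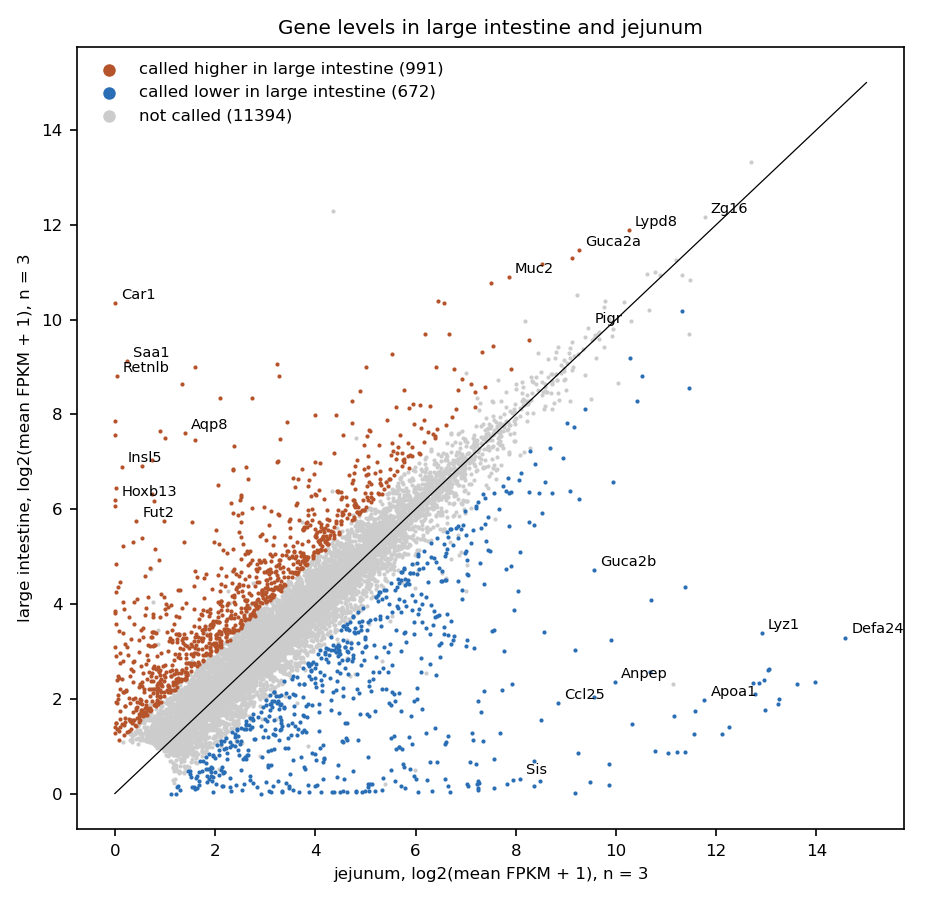
Mean level of every kept gene in the large intestine (vertical axis) and in the jejunum (horizontal axis), both as log2(mean FPKM + 1) over 3 libraries. Orange points are the 991 genes called higher in the large intestine and blue points the 672 called lower, and the line marks equal levels. Alpha-defensins and apolipoproteins lie far below the line at the right, while Car1, Saa1 and Retnlb lie far above it at the left.

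The genes were read in 41 lists by their role and in 24 lists of cell type markers. Among the role lists the lowest medians were those of the alpha-defensins, the brush border peptidases, the genes of fat absorption and the genes of sugar digestion, at median log2 differences of -10.65, -4.77, -3.98 and -3.75. The highest medians of the role lists belonged to the mucins, the goblet cell products, the Hox genes and the enzymes of mucin-type glycosylation, at 1.90, 1.68, 1.59 and 1.31. Among the marker lists Paneth cells and villus enterocytes had the lowest medians, at -10.18 and -5.34, and colonocytes the highest, at 2.47. The median over all genes was 0.11. Counts of calls in a list are to be read beside the shares over all genes, 7.59% higher and 5.15% lower. A count of few genes near those shares is not a result about its list.

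**Figure D2:**
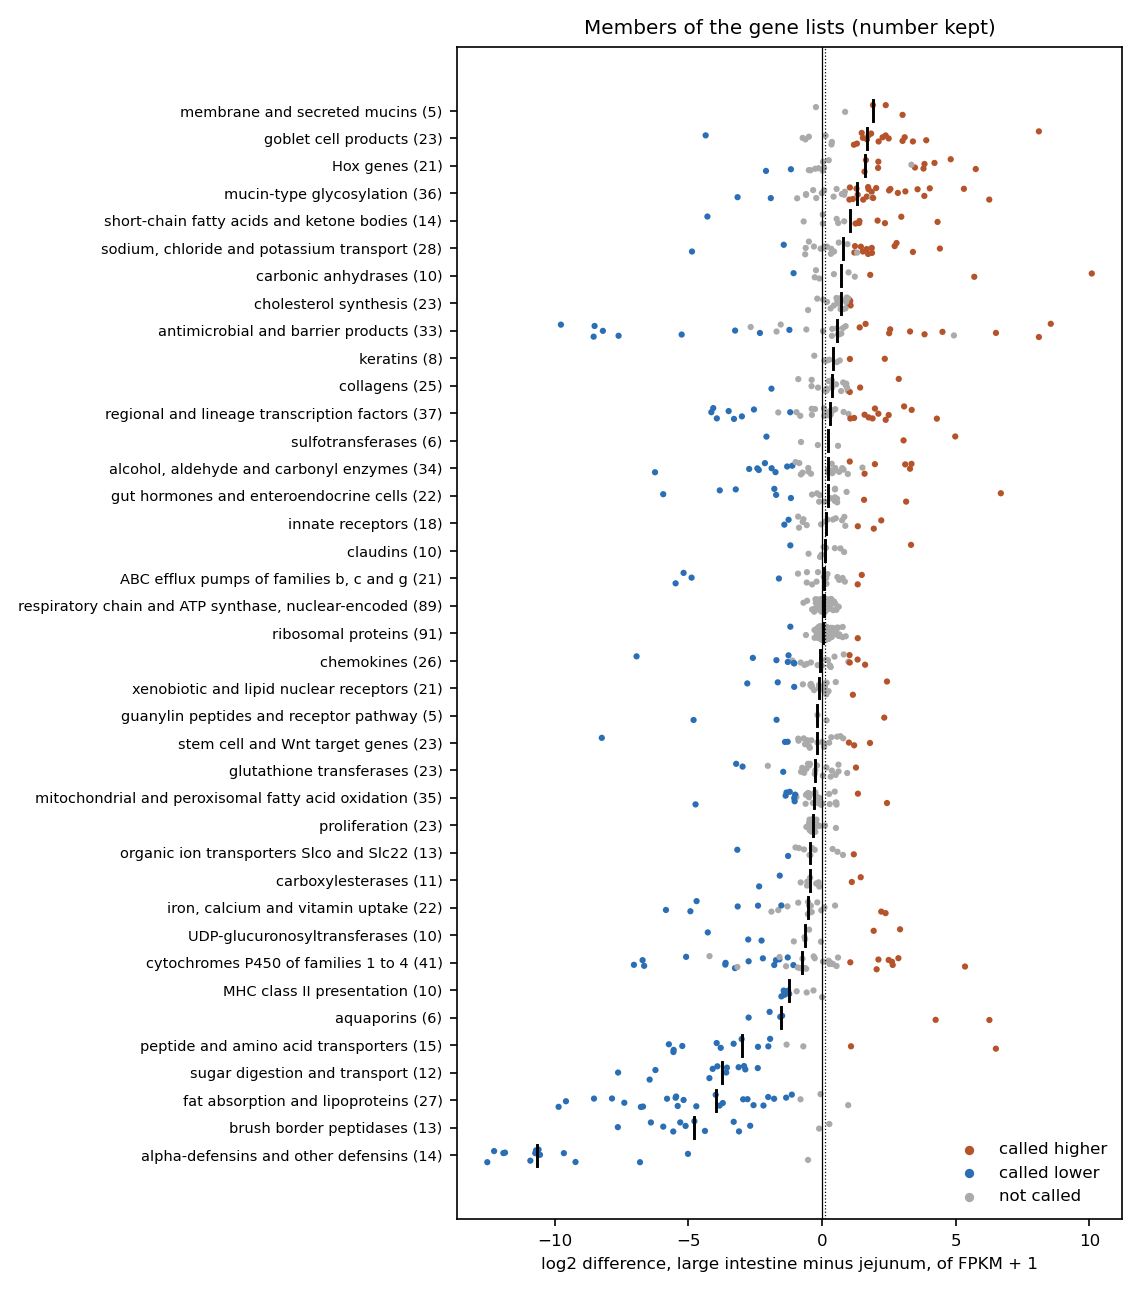
Log2 difference, large intestine minus jejunum, of every kept member of the role lists with at least 5 members, with orange for genes called higher, blue for genes called lower and grey for the rest. Black ticks mark the median of a list and the dotted line the median of all genes, 0.11. Lists of absorption lie almost wholly left of 0, while lists of mucus, glycosylation and salt transport lie mostly right of it. The lists of the respiratory chain and of ribosomal proteins sit close to 0.

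All 12 kept genes of sugar digestion and transport were called lower in the large intestine, with and without jejunum 24 and under each scaling. Sis, the sucrase-isomaltase that splits sucrose and starch fragments at the brush border, was at 0.406, 0.157 and 0.167 FPKM in the large intestine, against 124, 315 and 368 FPKM in the jejunum (log2 difference -7.63, SE 0.41, adjusted p = 0.00013). Lct was at 0.113, 0.0287 and 0.0367 FPKM in the large intestine, against 15.5, 192 and 245 FPKM in the jejunum (log2 difference -6.45, SE 1.08, adjusted p = 0.0079). Treh, the trehalase, was at 0.263, 0.0612 and 0.0261 FPKM in the large intestine, against 32.1, 112 and 154 FPKM in the jejunum (log2 difference -6.23, SE 0.58, adjusted p = 0.00099). No library of one tissue overlapped the other for these 3 disaccharidases, as for 53.9% of all kept genes, and jejunum 24 was the lowest jejunum library for each. Mgam, the maltase-glucoamylase, was at a higher level in the large intestine than these 3, at 25.8, 30.3 and 27.7 FPKM in the large intestine, against 112, 168 and 185 FPKM in the jejunum (log2 difference -2.40, SE 0.19, adjusted p = 0.00026). Slc5a1, the sodium-glucose cotransporter that takes glucose up from the lumen, was at 25.8, 26.5 and 24.5 FPKM in the large intestine, against 85.6, 262 and 321 FPKM in the jejunum (log2 difference -2.87, SE 0.50, adjusted p = 0.0074). The fructose transporter gene Slc2a5 was at 0.424, 0.496 and 0.635 FPKM in the large intestine, against 6.09, 25.7 and 30.5 FPKM in the jejunum (log2 difference -3.58, SE 0.58, adjusted p = 0.0059). The large intestine thus lay below the jejunum by more than the spread between libraries for both luminal sugar carriers. Slc2a2, the glucose exit carrier of the basal membrane, was at 0.0684, 0.0557 and 0 FPKM in the large intestine, against 1.56, 46.5 and 57.9 FPKM in the jejunum (log2 difference -4.21, SE 1.26, adjusted p = 0.048). Here jejunum 24 lay closer to the large intestine libraries than to jejunum 27 and 28. Enzymes of fructose breakdown were called lower with the carriers. On the log2 scale Khk, the ketohexokinase, fell by 3.91, and Dak, the triokinase, fell by 3.56. Slc2a2 lost its call without large intestine 24, 25 or 27 or jejunum 27 or 28 (log2 difference -4.23 to -3.40, adjusted p = 0.11 to 0.17).

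The start of Sis is shown because promoters of this gene are well studied in mice and people, where Cdx2 and Hnf1 proteins bind near its start. These are the 250 bases before the start of the RefSeq transcript (GRCm38.p6, chr3:72967864-72968113, minus strand), with capitals for the matches to 2 short motifs.
Sis: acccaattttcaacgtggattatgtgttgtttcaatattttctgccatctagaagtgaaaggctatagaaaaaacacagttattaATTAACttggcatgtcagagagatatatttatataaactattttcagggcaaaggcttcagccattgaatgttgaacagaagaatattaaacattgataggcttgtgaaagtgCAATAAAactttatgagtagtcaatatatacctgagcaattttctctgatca
The first match is to GTTAAT, a core of Hnf1 sites, 165 to 160 bases before the start, and the second is to TTTATNG, the core of Cdx sites, 52 to 46 bases before it. Both are on the strand opposite to the gene. Both strands were searched for these motifs, for GATAAG, bound by Gata factors, and for the sequence CAAAGTCCA, bound by Hnf4 proteins. No 2 matches overlapped, and the last 2 motifs were not matched in this window. Among 32851 windows of the same length, 6.432% held the Hnf1 motif, 9.811% the Cdx motif, 6.548% the Gata motif and 0.3835% the Hnf4 motif. Of the factors themselves, Cdx2 was not called, at 66.2, 112 and 126 FPKM in the large intestine, against 76.1, 76.3 and 66.4 FPKM in the jejunum (log2 difference 0.42, SE 0.24, adjusted p = 0.2). Gata4 and Gata5 were called lower in the large intestine, and their values stand with the transcription factors.

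Of 13 kept brush border peptidases, 11 were called lower and 0 higher, with and without jejunum 24. Anpep, aminopeptidase N, was at 5.84, 2.91 and 3.53 FPKM in the large intestine, against 703, 1144 and 1179.5 FPKM in the jejunum (log2 difference -7.63, SE 0.28, adjusted p = 1.3e-05). Enpep, glutamyl aminopeptidase, was at 3.11, 3.07 and 4.46 FPKM in the large intestine, against 209, 225 and 201 FPKM in the jejunum (log2 difference -5.56, SE 0.13, adjusted p = 1.5e-06). Both genes were far below the jejunum in every large intestine library. The meprins behaved differently from each other: Mep1b was called lower, at 43.2, 60.6 and 44.9 FPKM in the large intestine, against 236, 371 and 376 FPKM in the jejunum (log2 difference -2.69, SE 0.22, adjusted p = 0.00031). Mep1a was not called, at 80.9, 141 and 112 FPKM in the large intestine, against 222, 77.6 and 41.1 FPKM in the jejunum (log2 difference 0.27, SE 0.63, adjusted p = 0.76), and its groups overlapped. Dpep1, a membrane dipeptidase, was not called either, at 89.1, 142 and 109 FPKM in the large intestine, against 154, 114 and 99.1 FPKM in the jejunum (log2 difference -0.11, SE 0.22, adjusted p = 0.72).

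Of 15 kept transporters of peptides and amino acids, 11 were called lower and 2 higher, and without jejunum 24 the numbers were 12 and 2. Slc6a19, the main carrier of neutral amino acids, was at 0.715, 0.539 and 0.474 FPKM in the large intestine, against 56.998, 97.3 and 100.2 FPKM in the jejunum (log2 difference -5.73, SE 0.22, adjusted p = 1.4e-05). Slc7a9, which with Slc3a1 takes up cystine and basic amino acids, was at 1.54, 0.896 and 0.782 FPKM in the large intestine, against 96.9, 96.02 and 93.3 FPKM in the jejunum (log2 difference -5.56, SE 0.14, adjusted p = 2e-06). Slc15a1, the peptide transporter PepT1, was at 21.1, 13.5 and 3.85 FPKM in the large intestine, against 54.2, 122 and 117 FPKM in the jejunum (log2 difference -3.01, SE 0.64, adjusted p = 0.016). No large intestine library reached the lowest jejunum library for these 3 genes, and within the large intestine Slc15a1 was highest in library 24 and lowest in library 27. The 2 genes called higher were Slc6a14 and Slc1a5. Slc6a14, a carrier of neutral and basic amino acids driven by sodium and chloride, was at 152, 129 and 113 FPKM in the large intestine, against 1.97, 0.0194 and 0.00576 FPKM in the jejunum (log2 difference 6.50, SE 0.45, adjusted p = 0.00034). Slc1a5, a glutamine carrier, was at 79.2, 77.9 and 79.6 FPKM in the large intestine, against 49.99, 32.7 and 30.3 FPKM in the jejunum (log2 difference 1.08, SE 0.18, adjusted p = 0.0045). Slc15a1 was not called without jejunum 27 or 28 (log2 difference -2.83 to -2.80, adjusted p = 0.062 to 0.075). Slc1a5 lost its call without jejunum 28 (log2 difference 0.95, adjusted p = 0.014). After median-of-ratios scaling Slc1a5 was not called, at a log2 difference of 0.94.

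Of 27 genes of fat absorption and lipoproteins, 24 were called lower and 0 higher, also without jejunum 24. Where all libraries were brought to the same sum, and also without jejunum 27 or without large intestine 24, 22 were lower and 1 higher. The secreted apolipoproteins differed most. Apoa1, of high-density lipoproteins and chylomicrons, was at 4.14, 3.801 and 0.781 FPKM in the large intestine, against 1902, 3954 and 4575 FPKM in the jejunum (log2 difference -9.85, SE 0.53, adjusted p = 0.00014). Apoa4 was at 1.87, 0.562 and 0.0981 FPKM in the large intestine, against 181, 2963 and 4046 FPKM in the jejunum (log2 difference -9.57, SE 1.28, adjusted p = 0.0038). Apob, the scaffold of the chylomicron, was at 7.24, 8.31 and 6.54 FPKM in the large intestine, against 68.8, 172 and 185 FPKM in the jejunum (log2 difference -3.98, SE 0.39, adjusted p = 0.00091). Again the groups were apart, and jejunum 24 was far below jejunum 27 and 28 for Apoa4. Mttp, which loads lipid onto Apob, was at 0.913, 0.539 and 0.386 FPKM in the large intestine, against 100.2, 384 and 496 FPKM in the jejunum (log2 difference -7.39, SE 0.62, adjusted p = 0.00076). Of the enzymes that rebuild triglycerides in the cell, Mogat2 was called lower by 5.79 on the log2 scale, Dgat1 by 3.71 and Dgat2 by 1.34, the last of which was not called with the same sum of FPKM. Npc1l1, the cholesterol uptake protein, was at 0.195, 0.148 and 0.0943 FPKM in the large intestine, against 61.1, 158 and 167 FPKM in the jejunum (log2 difference -6.69, SE 0.39, adjusted p = 0.00015). Abcg5 and Abcg8, the paired pump that returns sterols to the lumen, had log2 differences of -5.47 and -5.18. The fatty acid binding proteins were unequal. Fabp1 was at 1.78, 3.69 and 0.917 FPKM in the large intestine, against 116, 2547 and 4182 FPKM in the jejunum (log2 difference -8.53, SE 1.45, adjusted p = 0.0087). Fabp2 stayed abundant in both tissues, at 180.0, 491 and 457 FPKM in the large intestine, against 1616, 3521 and 3296 FPKM in the jejunum (log2 difference -2.95, SE 0.48, adjusted p = 0.0045). Large intestine 24 was the lowest library for Fabp2 and jejunum 24 the lowest of the jejunum for both genes. The 3 members that were not called were Abca1, Plin2 and Scarb1, at log2 differences of -0.80, -0.06 and 0.98.

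Genes of bile acid handling set jejunum 24 apart. Of 4 kept genes 2 were called lower and 0 higher, with and without that library. Slc51a, a subunit of the basolateral bile acid exporter, was at 0.848, 1.82 and 7.85 FPKM in the large intestine, against 284, 111 and 94.1 FPKM in the jejunum (log2 difference -5.34, SE 0.72, adjusted p = 0.0035), and its partner Slc51b at 22.3, 22.7 and 26.4 FPKM in the large intestine, against 220.1, 88.7 and 80.4 FPKM in the jejunum (log2 difference -2.24, SE 0.39, adjusted p = 0.0066). Jejunum 24 was the highest library for both, and the groups did not overlap. Fabp6 was at 9.798, 0.958 and 1.23 FPKM in the large intestine, against 6731, 23.1 and 5.61 FPKM in the jejunum and was not called (log2 difference -4.83, SE 2.95, adjusted p = 0.26), and large intestine 24 lay between the jejunum libraries. Nr1h4, the bile acid receptor FXR, was not called, at 19.7, 22.3 and 24.02 FPKM in the large intestine, against 50.5, 18.6 and 14.1 FPKM in the jejunum (log2 difference -0.11, SE 0.46, adjusted p = 0.87).

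Uptake genes for iron, calcium and vitamins were called in both directions. Of 22 kept, 6 were called lower and 2 higher, and without jejunum 24, 7 and 1. Cubn and Amn, which together form the receptor for the complex of intrinsic factor and vitamin B12, were lower. Cubn was at 0.139, 0.0565 and 0.08098 FPKM in the large intestine, against 33.5, 29.6 and 33.3 FPKM in the jejunum (log2 difference -4.92, SE 0.093, adjusted p = 6.6e-07), and Amn at 0.913, 0.984 and 1.99 FPKM in the large intestine, against 47.7, 65.8 and 59.2 FPKM in the jejunum (log2 difference -4.69, SE 0.20, adjusted p = 2e-05). Rbp2, the retinol binding protein of enterocytes, was at 15.2, 21.4 and 11.3 FPKM in the large intestine, against 145, 1894 and 2967 FPKM in the jejunum (log2 difference -5.83, SE 1.19, adjusted p = 0.015). All 3 were lower in each large intestine library than in any jejunum library. The 2 genes called higher were Slc40a1, the iron exporter ferroportin, at 36.5, 24.8 and 23.2 FPKM in the large intestine, against 10.9, 3.48 and 2.13 FPKM in the jejunum (log2 difference 2.38, SE 0.52, adjusted p = 0.017), and Slc20a1, a phosphate carrier of most cells, at 131, 47.6 and 29.1 FPKM in the large intestine, against 12.4, 10.8 and 11.2 FPKM in the jejunum (log2 difference 2.21, SE 0.53, adjusted p = 0.023). Slc20a1 was highest in large intestine 24. Slc11a2, the iron importer of the brush border, was not called, at a log2 difference of -0.53. Vdr, the vitamin D receptor, was not called either, at -0.38. Rbp2 was not called without large intestine 27 or jejunum 27 (log2 difference -5.62 to -5.33, adjusted p = 0.062 to 0.07). Slc40a1 lost its call without large intestine 24 or 25 or jejunum 27 (log2 difference 2.18 to 2.45, adjusted p = 0.051 to 0.071). Slc20a1 was not called without large intestine 25 or jejunum 24, 27 or 28 (log2 difference 2.17 to 2.34, adjusted p = 0.06 to 0.088). With jejunum 27 left out the list had 0 called higher and 4 lower, and with large intestine 25 left out, 0 and 6.

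**Figure D3:**
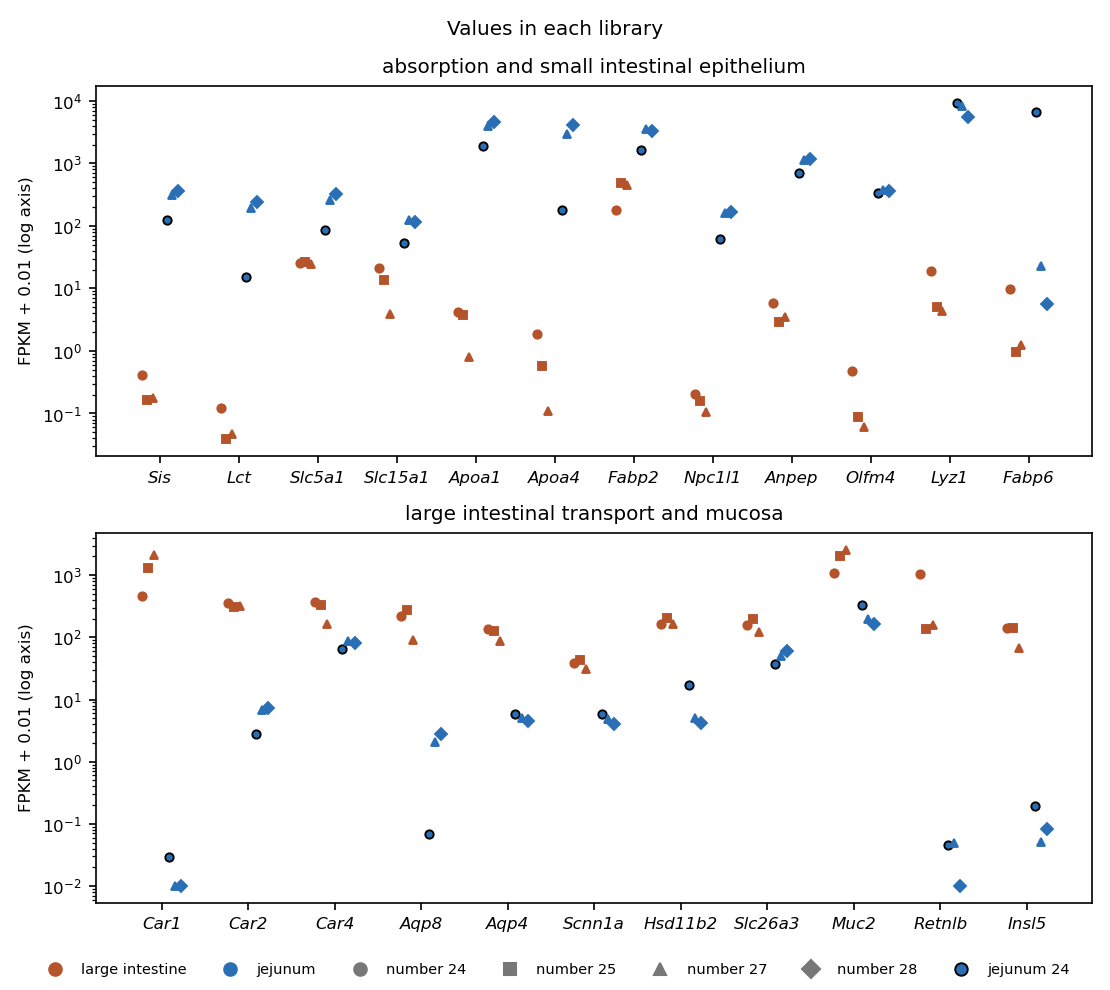
FPKM + 0.01 of 23 genes in each library on a log axis, with orange for the large intestine and blue for the jejunum, marker shapes for the library number and a black outline for jejunum 24. In the upper panel the large intestine libraries lie below every jejunum library for all genes but Fabp6, where jejunum 24 lies far above the other 2 jejunum libraries. In the lower panel they lie above every jejunum library for all 11 genes.

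Of 28 kept genes of sodium, chloride and potassium transport, 12 were called higher in the large intestine, 2 were called lower and 14 were not called, and without jejunum 24, 13 and 2. Scnn1a, the alpha subunit of the aldosterone-regulated sodium channel ENaC, was at 38.1, 43.99 and 30.9 FPKM in the large intestine, against 5.85, 4.81 and 3.97 FPKM in the jejunum (log2 difference 2.72, SE 0.16, adjusted p = 8.2e-05). Scnn1b, the beta subunit, was at 1.41, 3.16 and 3.91 FPKM in the large intestine, against 0.0231, 0 and 0.00743 FPKM in the jejunum (log2 difference 1.86, SE 0.26, adjusted p = 0.0021). Scnn1g, the gamma subunit, did not pass the filter, at 0.444, 0.0478 and 0.0437 FPKM in the large intestine and at most 0.00753 FPKM in the jejunum. Nr3c2, the aldosterone receptor, was at 15.7, 17.4 and 14.9 FPKM in the large intestine, against 6.04, 5.12 and 4.53 FPKM in the jejunum (log2 difference 1.45, SE 0.11, adjusted p = 0.00022). Hsd11b2, which removes glucocorticoids so that aldosterone can act on that receptor, was at 163, 202 and 166 FPKM in the large intestine, against 17.3, 5.07 and 4.24 FPKM in the jejunum (log2 difference 4.41, SE 0.49, adjusted p = 0.0017). Prss8, a protease that activates ENaC, had a log2 difference of 1.23. The groups did not overlap for any of these called genes, and jejunum 24 was the highest jejunum library for Scnn1a, Nr3c2 and Hsd11b2.

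Slc26a3, which exchanges chloride for bicarbonate and is mutated in congenital chloride diarrhoea in people, was at 159, 194 and 121 FPKM in the large intestine, against 36.9, 50.5 and 59.7 FPKM in the jejunum (log2 difference 1.67, SE 0.23, adjusted p = 0.0022). Its relative Slc26a6 went the other way, at 1.13, 1.08 and 0.937 FPKM in the large intestine, against 44.2, 61.7 and 73.6 FPKM in the jejunum (log2 difference -4.86, SE 0.18, adjusted p = 1e-05). Slc9a3, the sodium-proton exchanger of absorptive cells, was not called, at 28.5, 39.9 and 24.5 FPKM in the large intestine, against 3.22, 17.7 and 24.6 FPKM in the jejunum (log2 difference 1.31, SE 0.71, adjusted p = 0.2), and large intestine 27 lay just under jejunum 28. Best2, a channel of colonic goblet cells, was at 18.9, 8.88 and 5.16 FPKM in the large intestine, against 0.0323, 0 and 0 FPKM in the jejunum (log2 difference 3.40, SE 0.40, adjusted p = 0.0015). Kcnma1, the potassium channel through which the colon secretes potassium, had a log2 difference of 1.53. Cftr, the chloride channel of crypts, was not called (0.19), nor was Atp1b1, a subunit of the sodium pump (-0.05). Tight junction claudins differed in few members, with 1 of 10 called higher and 1 lower. Cldn8, a sodium-sealing claudin, was at 39.5, 27.3 and 31.5 FPKM in the large intestine, against 9.43, 1.17 and 0.626 FPKM in the jejunum (log2 difference 3.33, SE 0.72, adjusted p = 0.017). Cldn15, which forms sodium pores in the small intestine, was at 80.9, 105 and 112 FPKM in the large intestine, against 167, 256 and 266 FPKM in the jejunum (log2 difference -1.19, SE 0.21, adjusted p = 0.0057), and was not called with the same sum of FPKM. Cldn8 lost its call without large intestine 24, 25 or 27 or jejunum 27 or 28 (log2 difference 2.81 to 3.45, adjusted p = 0.0501 to 0.077). The claudin median turned from 0.10 as deposited to -0.04 after median-of-ratios scaling, and with the same sum 3 claudins were higher and 0 lower.

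Carbonic anhydrases, which supply the protons and bicarbonate exchanged for salt, included the gene with the largest difference called higher. Car1, a cytosolic enzyme, was at 468, 1303 and 2138 FPKM in the large intestine, against 0.01903, 0 and 0 FPKM in the jejunum (log2 difference 10.09, SE 0.55, adjusted p = 0.00017). Car2 was at 353, 304 and 319 FPKM in the large intestine, against 2.7998, 6.88 and 7.38 FPKM in the jejunum (log2 difference 5.69, SE 0.30, adjusted p = 7.8e-05). Car4, anchored at the cell surface, was at 371, 329 and 163 FPKM in the large intestine, against 66.1, 86.3 and 79.8 FPKM in the jejunum (log2 difference 1.80, SE 0.31, adjusted p = 0.0058). None of these groups overlapped. Large intestine 24 had the lowest Car1 and large intestine 27 the lowest Car4 of their tissue. Of 10 kept members 3 were called higher and 1, Car13, lower (-1.06), without jejunum 24, 5 and 1, and without large intestine 24, 5 and 0. Car13 was not called without large intestine 24 or jejunum 27 (log2 difference -0.95 to -0.94, adjusted p = 0.0086 to 0.012). The aquaporins split, with 2 of 6 called higher and 4 lower, also without jejunum 24, and 2 and 3 without jejunum 27 or without large intestine 27. Aqp8, a water channel of colonocytes, was at 219.5, 271 and 90.7 FPKM in the large intestine, against 0.0589, 2.04 and 2.801 FPKM in the jejunum (log2 difference 6.26, SE 0.64, adjusted p = 0.0014). Aqp4 was at 135, 129 and 87.9 FPKM in the large intestine, against 5.91, 4.96 and 4.58 FPKM in the jejunum (log2 difference 4.25, SE 0.18, adjusted p = 1.6e-05). Aqp1, the channel of vessels, fell by 1.49 and Aqp11 by 1.56 on the log2 scale. Aqp3 was at 0.183, 0.11996 and 0.0614 FPKM in the large intestine, against 1.995, 9.62 and 12.3 FPKM in the jejunum (log2 difference -2.74, SE 0.56, adjusted p = 0.013). Aqp3 lost its call without large intestine 27 or jejunum 27 (log2 difference -2.70 to -2.49, adjusted p = 0.053 to 0.054).

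Guanylin and uroguanylin are 2 small hormones released into the gut lumen, where both activate the receptor guanylate cyclase C, encoded by Gucy2c, and so drive the secretion of chloride and bicarbonate. Their genes, Guca2a for guanylin and Guca2b for uroguanylin, are neighbours on chromosome 4 (mm10), with 17137 bases and 0 other genes of the annotation between their records, at 119637732 to 119639465 and 119656603 to 119658945. They were called in opposite directions. Guca2a was at 1904, 3418 and 3179.8 FPKM in the large intestine, against 999, 547 and 299 FPKM in the jejunum (log2 difference 2.33, SE 0.46, adjusted p = 0.0094). Guca2b was at 19.8, 26.5 and 29.1 FPKM in the large intestine, against 460.3, 839.9 and 962 FPKM in the jejunum (log2 difference -4.80, SE 0.30, adjusted p = 0.00012). No library of one tissue overlapped the other for either gene, and jejunum 24 had the highest Guca2a and the lowest Guca2b of the jejunum. Both calls held without jejunum 24 and under each scaling. Gucy2c was at 50.5, 66.3 and 69.8 FPKM in the large intestine, against 57.4, 72.8 and 80.3 FPKM in the jejunum and was not called (log2 difference -0.17, SE 0.17, adjusted p = 0.46). Prkg2, the kinase downstream of the receptor, was called lower (-1.70).

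The 250 bases before the start of each gene (RefSeq, GRCm38.p6) are shown because the neighbours moved in opposite directions, with capitals for the same motifs as for Sis. Guca2a lies on the plus strand (chr4:119637482-119637731) and Guca2b on the minus strand (chr4:119658946-119659195).
Guca2a: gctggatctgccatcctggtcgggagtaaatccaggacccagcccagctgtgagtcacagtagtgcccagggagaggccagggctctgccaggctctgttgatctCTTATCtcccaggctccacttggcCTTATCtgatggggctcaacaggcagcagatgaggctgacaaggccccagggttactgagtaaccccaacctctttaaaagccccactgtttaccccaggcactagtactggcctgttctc
Guca2b: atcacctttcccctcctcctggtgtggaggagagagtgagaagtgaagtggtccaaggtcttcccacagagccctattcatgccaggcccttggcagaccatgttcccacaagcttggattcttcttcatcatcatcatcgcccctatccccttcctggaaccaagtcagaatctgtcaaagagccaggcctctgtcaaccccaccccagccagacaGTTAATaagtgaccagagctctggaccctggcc
The window of Guca2a held GATAAG on the opposite strand at 2 places, 145 to 140 and 121 to 116 bases before the start, and none of the Hnf1, Cdx and Hnf4 motifs. The window of Guca2b held GTTAAT on its own strand, 33 to 28 bases before the start, and none of the other 3 motifs.

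Of 14 kept genes for the use of short-chain fatty acids and ketone bodies, 7 were called higher in the large intestine, 1 was called lower and 6 were not called. The counts were 7 and 2 without jejunum 24, and 6 and 1 without jejunum 27 or without any 1 of the large intestine libraries. Slc16a1, the carrier MCT1 of butyrate and lactate, was at 60.3, 64.6 and 61.5 FPKM in the large intestine, against 19.7, 22.8 and 26.7 FPKM in the jejunum (log2 difference 1.399, SE 0.12, adjusted p = 0.00029). Slc5a8, a sodium-coupled carrier of the same acids, was at 60.8, 43.1 and 37.6 FPKM in the large intestine, against 22.6, 10.5 and 4.17 FPKM in the jejunum (log2 difference 2.08, SE 0.57, adjusted p = 0.035). The large intestine lay above the jejunum in each library for both carriers. Acsm3, which activates fatty acids such as butyrate, had a log2 difference of 2.96, Acads, the short-chain acyl-CoA dehydrogenase, of 1.34, and Ffar2, a receptor for short-chain fatty acids, of 2.35. The gene called lower, Slc5a12, a low-affinity lactate carrier, was at 0.0557, 0.0116 and 0 FPKM in the large intestine, against 6.08, 34.8 and 30.2 FPKM in the jejunum (log2 difference -4.29, SE 0.64, adjusted p = 0.0045). Slc5a8 was not called without large intestine 24, 25 or 27 or jejunum 27 (log2 difference 1.88 to 2.22, adjusted p = 0.086 to 0.11).

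Of 35 genes of mitochondrial and peroxisomal fatty acid oxidation, 2 were called higher and 7 lower, and without jejunum 24, 2 and 8. The median was -0.31, and 0.08 with the same sum of FPKM, where 1 gene was lower. Vnn1, a pantetheinase, was at 0.382, 0.74001 and 1.81 FPKM in the large intestine, against 43.4, 59.4 and 46.1 FPKM in the jejunum (log2 difference -4.73, SE 0.27, adjusted p = 8.9e-05). Pparg, the lipid-sensing receptor abundant in colonocytes, was at 23.5, 38.6 and 34.1 FPKM in the large intestine, against 4.41, 4.98 and 5.74 FPKM in the jejunum (log2 difference 2.43, SE 0.19, adjusted p = 0.00024). Ppara, its relative that drives fatty acid oxidation, was at 2.69, 4.28 and 5.68 FPKM in the large intestine, against 9.31, 9.77 and 9.202 FPKM in the jejunum (log2 difference -1.04, SE 0.21, adjusted p = 0.0087). The 2 receptors were thus called in opposite directions. Ppara was not called with the same sum. Ppara lost its call without large intestine 24 (log2 difference -0.81, adjusted p = 0.0078). The number called lower in the list was 4 without jejunum 27 and 3 without large intestine 24. Of 23 genes of cholesterol synthesis and its control 4 were called higher, Lss, Mvd, Fdps and Fdft1, and 0 lower. The numbers were 9 and 0 without jejunum 24, 15 and 0 with the same sum and 0 and 0 after median-of-ratios scaling or quantile normalization, although 18 of the 23 had an unadjusted p under 0.05 as deposited. They were also 0 and 0 without jejunum 27, without jejunum 28 or without large intestine 25, and 1 and 0 without large intestine 27. Fdft1, squalene synthase, was at 29.2, 42.5 and 30.8 FPKM in the large intestine, against 23.2, 13.7 and 11.7 FPKM in the jejunum (log2 difference 1.07, SE 0.27, adjusted p = 0.021). Fdft1 was not called without large intestine 25 or 27 or jejunum 27 or 28 (log2 difference 0.88 to 1.13, adjusted p = 0.055 to 0.079). Fdps lost its call without large intestine 24, 25 or 27 or jejunum 27 or 28 (log2 difference 0.81 to 1.16, adjusted p = 0.061 to 0.1). Mvd was not called without large intestine 25 or 27 or jejunum 27 or 28 (log2 difference 0.82 to 1.09, adjusted p = 0.066 to 0.097). Lss lost its call without large intestine 24, 25 or 27 or jejunum 27 or 28 (log2 difference 0.75 to 1.16, adjusted p = 0.052 to 0.13).

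Of 23 goblet cell products 16 were called higher in the large intestine and 1 lower, and without jejunum 24, 16 and 0. The shorter list of goblet cell markers had 3 of 8 called higher and 0 lower, with a median log2 difference of 0.36, against 1.68 for the products. Muc2, the gel-forming mucin, was at 1095, 2004 and 2586 FPKM in the large intestine, against 330.0, 200.1 and 162 FPKM in the jejunum (log2 difference 3.01, SE 0.39, adjusted p = 0.0019). Agr2, which folds Muc2, was at 1995, 2863 and 2740.4 FPKM in the large intestine, against 858, 463 and 353 FPKM in the jejunum (log2 difference 2.26, SE 0.34, adjusted p = 0.003). Spdef, a transcription factor of goblet cell maturation, was at 59.5, 83.3 and 86.3 FPKM in the large intestine, against 18.8, 13.7 and 9.84 FPKM in the jejunum (log2 difference 2.38, SE 0.25, adjusted p = 0.00083). Every large intestine library lay above every jejunum library for these genes, and jejunum 24 was the highest of its tissue. Klk1, a kallikrein, was at 1268, 1253 and 1385 FPKM in the large intestine, against 147, 71.7 and 60.9 FPKM in the jejunum (log2 difference 3.90, SE 0.32, adjusted p = 0.00034). Other abundant goblet cell products were not called. Zg16, a lectin that binds Gram-positive bacteria, was at 3627, 5542 and 4546 FPKM in the large intestine, against 3676, 3461 and 3333 FPKM in the jejunum (log2 difference 0.37, SE 0.20, adjusted p = 0.18), but was called higher after quantile normalization (1.90). Tff3, the trefoil peptide, was at 1760.3, 1968 and 1777 FPKM in the large intestine, against 3402, 2622 and 2504 FPKM in the jejunum (log2 difference -0.62, SE 0.17, adjusted p = 0.028), below the jejunum in each library by less than the size needed for a call. Fcgbp was at 1068, 471 and 361 FPKM in the large intestine, against 453, 466 and 412 FPKM in the jejunum (log2 difference 0.35, SE 0.39, adjusted p = 0.5), and its groups overlapped. The 1 member called lower was Pnliprp2, a lipase, at 22.4, 2.05 and 0.892 FPKM in the large intestine, against 131, 106 and 80.6 FPKM in the jejunum (log2 difference -4.35, SE 0.98, adjusted p = 0.02). Pnliprp2 was not called without large intestine 25 or 27 or jejunum 24, 27 or 28 (log2 difference -4.53 to -3.63, adjusted p = 0.057 to 0.087). Among the membrane-bound mucins, Muc4 (2.38) and Muc1 (1.90) were called higher and Muc13 (-0.23) was not called.

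The enzymes that build sugar chains on mucins were called higher for 21 of 36 members and lower for 2, also without jejunum 24. The count spans the whole pathway. Of the starting enzymes, 6 of 13 kept Galnt genes were called higher and 0 lower. C1galt1, which makes core 1, was at 41.8, 60.2 and 58.2 FPKM in the large intestine, against 19.7, 13.4 and 9.89 FPKM in the jejunum (log2 difference 1.86, SE 0.26, adjusted p = 0.0024). B3gnt6, which makes core 3, was at 8.598, 40.4 and 54.5 FPKM in the large intestine, against 1.22, 0.536 and 0.487 FPKM in the jejunum (log2 difference 4.03, SE 0.69, adjusted p = 0.0078). Gcnt4, a core 2 enzyme, went the other way, at 0.649, 0.954 and 1.20 FPKM in the large intestine, against 15.1, 17.2 and 16.2 FPKM in the jejunum (log2 difference -3.16, SE 0.13, adjusted p = 1.3e-05). No values overlapped between the tissues, and large intestine 24 had the lowest B3gnt6 of its tissue. The members of the list with the largest differences were St6galnac6 and Fut2. Fut2, which adds the terminal fucose of blood group H, was at 41.3, 53.1 and 64.2 FPKM in the large intestine, against 0.43998, 0.248 and 0.347 FPKM in the jejunum (log2 difference 5.30, SE 0.16, adjusted p = 3.9e-06). St6galnac6, a sialyltransferase, was at 321, 350.4 and 294 FPKM in the large intestine, against 4.21, 2.65 and 2.96 FPKM in the jejunum (log2 difference 6.25, SE 0.15, adjusted p = 1.5e-06). B3galt5, an enzyme of chain extension that was not in the list and was among the 8 largest differences of all genes above 0 in each library, was at 104, 135 and 121 FPKM in the large intestine, against 0.443, 0.453 and 0.455 FPKM in the jejunum (log2 difference 6.38, SE 0.10, adjusted p = 4.3e-07). For all 3 the large intestine libraries agreed closely and stood far above the jejunum. Slc35a1, the carrier of sialic acid nucleotides into the Golgi, had a log2 difference of 3.12. St3gal4, another sialyltransferase, was called lower (-1.92).

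Alpha-defensins, antimicrobial peptides of Paneth cells, held the largest differences of the comparison, and were lower in the large intestine. The table listed 60 genes with a defensin symbol, alpha-defensins and others, of which 14 passed the filter, and 13 of these were called lower and 0 higher. Defensins could pass the filter through their jejunum values alone, so this count only describes the values. Defa24 was at 24.5, 1.84 and 1.54e-06 FPKM in the large intestine, against 21954, 25213 and 26239 FPKM in the jejunum (log2 difference -12.52, SE 1.19, adjusted p = 0.0012). Defa23 was at 11.2, 0.706 and 0.496 FPKM in the large intestine, against 10480.0, 16294 and 21566 FPKM in the jejunum (log2 difference -12.26, SE 0.88, adjusted p = 0.00046). The 8 largest differences called lower, among genes above 0 in every library, were Defa24, Defa23, Gm15284, Defa3, Defa17, Gm7849, Gm14851 and AY761184. RefSeq gives the current symbol of Gm15284 as a defensin, Defa30. Alpha-defensin copies resemble each other so closely that reads may be assigned to the wrong copy, and each copy's value is uncertain. The summed level of the 60 genes with a defensin symbol was 6.65 to 98.0 FPKM in the large intestine and 79616 to 102870 FPKM in the jejunum. Large intestine 24 held the highest sum of its tissue. The sum leaves out Gm15284, Gm7849, Gm14851 and AY761184. Lyz1, the lysozyme of Paneth cells, was at 18.7, 5.12 and 4.39 FPKM in the large intestine, against 9289, 8275 and 5534 FPKM in the jejunum (log2 difference -9.76, SE 0.53, adjusted p = 0.00012). Mmp7, the protease that cuts mouse alpha-defensin precursors, was at 1.34, 0.946 and 1.18 FPKM in the large intestine, against 183, 172 and 132 FPKM in the jejunum (log2 difference -6.24, SE 0.14, adjusted p = 1.5e-06). Of 12 Paneth cell markers 10 were called lower and 1 higher. The marker called higher was Nupr1 (2.66), a stress-response gene of many cells. Ang4, a ribonuclease made by Paneth and goblet cells, was not called, at 2155, 182 and 86.4 FPKM in the large intestine, against 1114, 1074 and 714 FPKM in the jejunum (log2 difference -1.54, SE 1.21, adjusted p = 0.36), and large intestine 24 was the highest of all 6 libraries.

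Outside the defensins, 10 of 33 antimicrobial and barrier genes were called higher and 9 lower, and without jejunum 24, 11 and 9. Of 6 kept lectins of the Reg family 5 were called lower, Reg1, Reg3a, Reg3b, Reg3d and Reg3g, while Reg4 was not called (-1.70) and Reg2 did not pass the filter. Reg3b was at 1.41, 0.2599 and 3.62 FPKM in the large intestine, against 2748, 746 and 326 FPKM in the jejunum (log2 difference -8.50, SE 0.91, adjusted p = 0.0018). Reg3g, which binds Gram-positive bacteria, was at 0.958, 1.43 and 6.94 FPKM in the large intestine, against 1293, 641 and 335 FPKM in the jejunum (log2 difference -7.61, SE 0.72, adjusted p = 0.0011). Itln1, a lectin that binds bacterial sugars, was at 55.4, 1.82 and 1.26 FPKM in the large intestine, against 2800.3, 2842 and 2326 FPKM in the jejunum (log2 difference -8.54, SE 1.30, adjusted p = 0.0057). The groups did not overlap, jejunum 24 was the highest library for both Reg3 genes, and large intestine 24 the highest of its tissue for Itln1. The genes called higher were of other families. Retnlb, a secreted protein of colonic goblet cells that kills bacteria, was at 1046, 136 and 157 FPKM in the large intestine, against 0.0364, 0.0398 and 0 FPKM in the jejunum (log2 difference 8.11, SE 0.82, adjusted p = 0.0015). Saa1, an acute-phase lipid carrier that colonic epithelium makes on contact with bacteria, was at 952, 562 and 159 FPKM in the large intestine, against 0.415, 0.0957 and 0.0428 FPKM in the jejunum (log2 difference 8.55, SE 0.66, adjusted p = 0.00059). Wfdc2, a protease inhibitor of mucosal surfaces, was at 247, 157 and 138 FPKM in the large intestine, against 1.71, 0.467 and 0.836 FPKM in the jejunum (log2 difference 6.50, SE 0.30, adjusted p = 4.2e-05). Large intestine 24 had the highest value of all 3, but the other 2 large intestine libraries also lay far above the jejunum. Lypd8, which binds flagella and keeps bacteria out of the inner mucus, was at 4138, 3834 and 3372 FPKM in the large intestine, against 1234, 1336 and 1096 FPKM in the jejunum (log2 difference 1.63, SE 0.16, adjusted p = 0.00052). Nox1, the oxidase of colonic epithelium, had a log2 difference of 2.55. Pigr, which carries IgA into the lumen, was not called, at 1134, 805 and 787 FPKM in the large intestine, against 546, 756 and 789 FPKM in the jejunum (log2 difference 0.38, SE 0.21, adjusted p = 0.2), but was called higher after quantile normalization (1.12).

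Of 18 kept receptors for microbial products 3 were called higher and 2 lower, and without jejunum 24, 4 and 2. Those called higher were Tlr1 (2.22), Tlr2 (1.34) and Tlr4 (1.93), receptors for bacterial lipopeptides and for lipopolysaccharide. Tlr4 was at 6.09, 5.62 and 4.58 FPKM in the large intestine, against 1.24, 0.5099 and 0.388 FPKM in the jejunum (log2 difference 1.93, SE 0.20, adjusted p = 0.00068). Naip5, a flagellin sensor, was at 21.4, 25.1 and 24.4 FPKM in the large intestine, against 61.1, 67.4 and 64.4 FPKM in the jejunum (log2 difference -1.41, SE 0.090, adjusted p = 9.7e-05). The groups overlapped for neither, and Naip5 was not called with the same sum of FPKM. Cd14, the co-receptor of Tlr4, was the 1 macrophage marker of 12 that was called, at 22.1, 16.99 and 14.8 FPKM in the large intestine, against 5.62, 4.12 and 3.73 FPKM in the jejunum (log2 difference 1.79, SE 0.18, adjusted p = 0.00065). The summed level of all 13 macrophage markers in the table, with Fcgr1, which did not pass the filter, was 219 to 269 FPKM in the large intestine and 244 to 453 FPKM in the jejunum.

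Genes of intraepithelial T and NK cells were lower in the large intestine, with 9 of 13 called lower and 0 higher, and without jejunum 24, 11 and 0. The summed level of all 16 such genes in the table, with those below the filter, was 8.67 to 18.9 FPKM in the large intestine and 41.4 to 144 FPKM in the jejunum. Jejunum 24 had the lowest sum of its tissue. Gzma, a granzyme of these cells, was at 0.102, 0.162 and 0.208 FPKM in the large intestine, against 5.52, 48.6 and 45.8 FPKM in the jejunum (log2 difference -4.42, SE 0.82, adjusted p = 0.01). Cd8a, the co-receptor of most of them, was at 0.131, 0.994 and 0.167 FPKM in the large intestine, against 1.24, 3.71 and 3.25 FPKM in the jejunum (log2 difference -1.36, SE 0.35, adjusted p = 0.023). Cd3g, a chain of the T cell receptor complex, was at 0.808, 2.11 and 0.718 FPKM in the large intestine, against 4.34, 7.36 and 5.76 FPKM in the jejunum (log2 difference -1.66, SE 0.27, adjusted p = 0.0043). The tissues were apart for the 3 genes. Ccl25, the epithelial chemokine that draws lymphocytes with the receptor Ccr9 to the small intestine, was at 2.96, 2.45 and 2.81 FPKM in the large intestine, against 373, 469 and 541 FPKM in the jejunum (log2 difference -6.93, SE 0.14, adjusted p = 1e-06). Ccl28, another epithelial chemokine, was at 43.3, 33.7 and 27.05 FPKM in the large intestine, against 19.2, 14.99 and 14.5 FPKM in the jejunum (log2 difference 1.04, SE 0.19, adjusted p = 0.0059). Of 26 chemokines 4 were called higher and 7 lower, and without jejunum 24, 6 and 5. Of 10 genes of MHC class II presentation 6 were called lower and 0 higher, and without jejunum 24, 5 and 0. With the same sum of FPKM, and also without large intestine 25, 3 were lower. H2-Ab1 was at 107, 69.95 and 62.9 FPKM in the large intestine, against 223, 301 and 169 FPKM in the jejunum (log2 difference -1.52, SE 0.27, adjusted p = 0.0062). B cell markers were called for 0 of 11 members, none with an unadjusted p under 0.05 in limma, and their summed level was 4.43 to 49.2 FPKM in the large intestine and 4.68 to 129 FPKM in the jejunum, highest in jejunum 24. Whether the immune cells in the samples bear on the chemokine and MHC results was not tested. Cd8a lost its call without large intestine 24 or 27 or jejunum 27 or 28 (log2 difference -1.24 to -1.16, adjusted p = 0.069 to 0.08). Ccl28 was not called without large intestine 24 or jejunum 27 or 28 (log2 difference 0.87 to 0.99, adjusted p = 0.012 to 0.028). It was not called after median-of-ratios scaling (0.90) or quantile normalization (0.95) either.

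Hormones of enteroendocrine cells were called in both directions. Of 22 kept genes 3 were called higher and 6 lower, and without jejunum 24, 4 and 5. Insl5, an insulin-like peptide of colonic L cells, was at 144, 143 and 68.4 FPKM in the large intestine, against 0.186, 0.0406 and 0.0727 FPKM in the jejunum (log2 difference 6.69, SE 0.29, adjusted p = 3e-05). Pyy, peptide YY, which slows the gut, was at 111, 118 and 89.5 FPKM in the large intestine, against 30.3, 9.31 and 4.38 FPKM in the jejunum (log2 difference 3.14, SE 0.64, adjusted p = 0.014). Tph1, which makes serotonin in enterochromaffin cells, was at 7.401, 8.15 and 7.44 FPKM in the large intestine, against 1.59, 2.27 and 1.92 FPKM in the jejunum (log2 difference 1.57, SE 0.12, adjusted p = 0.00017). Each large intestine library lay above each jejunum library. Gip, the incretin of K cells, was at 0.113, 0 and 0 FPKM in the large intestine, against 20.8, 92.8 and 125 FPKM in the jejunum (log2 difference -5.94, SE 0.67, adjusted p = 0.002). Ghrl, ghrelin, was at 0.603, 0.5905 and 0.826 FPKM in the large intestine, against 6.07, 18.9 and 26.2 FPKM in the jejunum (log2 difference -3.23, SE 0.49, adjusted p = 0.0044). Cck, which empties the gall bladder, was at 2.66, 5.31 and 5.18 FPKM in the large intestine, against 8.53, 21.3 and 26.4 FPKM in the jejunum (log2 difference -1.78, SE 0.45, adjusted p = 0.025). Jejunum 24 was the lowest jejunum library for these last 3. Sct, Sst and Nts, for secretin, somatostatin and neurotensin, were called lower as well (-1.72, -1.16 and -3.82), Sst not with the same sum of FPKM. Gcg, the precursor of GLP-1, was not called, at 63.1, 96.2 and 79.6 FPKM in the large intestine, against 63.2, 34.4 and 31.7 FPKM in the jejunum (log2 difference 0.92, SE 0.29, adjusted p = 0.045), and was called higher without jejunum 24 (1.22) and with the same sum of FPKM (1.35). The markers shared by these cells, Chga (0.32) and Chgb (0.47), were not called. Pyy lost its call without large intestine 25 or 27 or jejunum 27 (log2 difference 3.03 to 3.26, adjusted p = 0.051 to 0.067). Cck was not called without large intestine 24, 25 or 27 or jejunum 27 or 28 (log2 difference -1.92 to -1.48, adjusted p = 0.058 to 0.092). Sct lost its call without large intestine 25 or jejunum 24, 27 or 28 (log2 difference -1.83 to -1.58, adjusted p = 0.059 to 0.085).

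The table listed 39 Hox genes, of which 21 passed the filter, and 10 were called higher and 2 lower, and without jejunum 24, 11 and 2. All 9 kept genes of the Hoxa cluster were called higher, from Hoxa2 to Hoxa13, and this held without jejunum 24. Hoxa10 was at 22.5, 28.4 and 32.02 FPKM in the large intestine, against 0.0292, 0 and 0 FPKM in the jejunum (log2 difference 4.81, SE 0.14, adjusted p = 3.3e-06). Hoxa13 was at 12.7, 15.97 and 11.3 FPKM in the large intestine and was listed at 0 in all 3 jejunum libraries, as was Hoxa11. Hoxa5, an anterior member, was measured in both tissues, at 11.8, 9.94 and 10.5 FPKM in the large intestine, against 2.74, 2.85 and 3.13 FPKM in the jejunum (log2 difference 1.59, SE 0.098, adjusted p = 8.3e-05). The large intestine libraries agreed closely for each of these genes. In the Hoxb cluster 1 of 8 kept genes was called higher. Hoxb13, its last gene, was at 147, 48.9 and 20.4 FPKM in the large intestine, against 0.0169, 0 and 0 FPKM in the jejunum (log2 difference 5.75, SE 0.69, adjusted p = 0.0024), and large intestine 24 was the highest. Hoxb9 was not called, at 19.7, 26.4 and 28.1 FPKM in the large intestine, against 11.9, 0.0749 and 0.141 FPKM in the jejunum (log2 difference 3.34, SE 1.03, adjusted p = 0.052), where jejunum 24 lay closer to the large intestine than to the other jejunum libraries. It was called higher without that library (4.52) and under each of the 3 other scalings. The 2 kept genes of the Hoxc cluster were both called lower. Hoxc6 was at 0.0128, 0.0538 and 0.0516 FPKM in the large intestine, against 7.396, 2.78 and 1.75 FPKM in the jejunum (log2 difference -2.09, SE 0.39, adjusted p = 0.0076). Hoxc4 was at 0.211, 0.158 and 0.472 FPKM in the large intestine, against 2.31, 1.82 and 1.49 FPKM in the jejunum (log2 difference -1.16, SE 0.15, adjusted p = 0.0016) and was not called with the same sum of FPKM. Neither kept gene of the Hoxd cluster was called. The Hoxb genes between the ends of the cluster set single libraries apart in both tissues. Hoxb6 was at 1.53, 2.77 and 12.2 FPKM in the large intestine, against 14.9, 2.08 and 2.36 FPKM in the jejunum, and Hoxb5 at 2.23, 2.47 and 7.72 FPKM in the large intestine, against 7.12, 2.08 and 2.31 FPKM in the jejunum. Large intestine 27 and jejunum 24 were the high libraries for both, and the groups overlapped. Of the 6 kept genes numbered 9 to 13, 5 were called higher, and of the 15 numbered 1 to 8, 5 were higher and 2 lower.

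**Figure D4:**
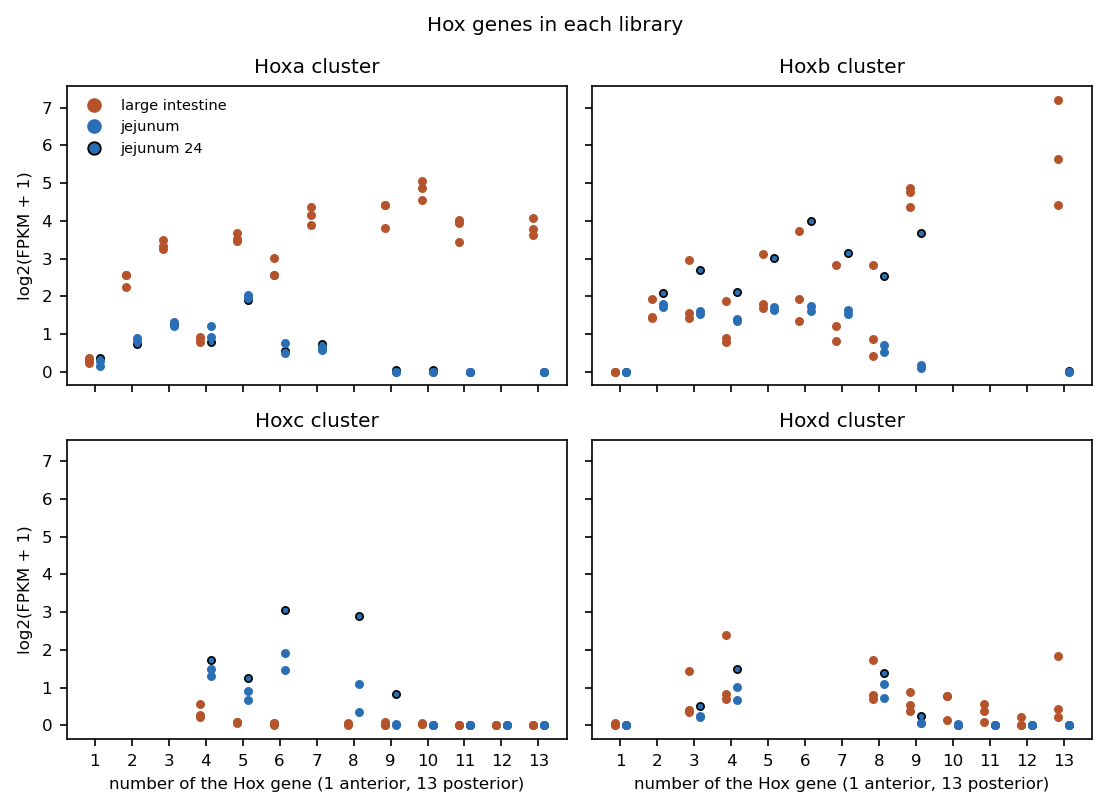
Level of each Hox gene, as log2(FPKM + 1), in the 3 large intestine libraries (orange) and the 3 jejunum libraries (blue, black outline for jejunum 24), by cluster and by the number of the gene, where 1 is anterior and 13 posterior. In the Hoxa cluster the large intestine lies above the jejunum at all numbers but 1 and 4, and jejunum 24 lies apart from the other jejunum libraries in the Hoxb and Hoxc clusters.

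The Hox clusters also hold the genes of the miR-196 microRNAs, whose targets in vertebrates include Hox messages. Mir196a-1, on chromosome 11 (mm10, 96265164 to 96265265, plus strand), was called higher, at 162, 60.6 and 342 FPKM in the large intestine, and was listed at 0 in all 3 jejunum libraries. Mir196b, on chromosome 6 near the Hoxa genes, was at 0, 130 and 379 FPKM in the large intestine and at 0 in the jejunum and did not pass the filter. Mir196a-2, on chromosome 15, was listed at 0 in all 6. The libraries were not made for small RNAs, so these values are of reads on the short hairpin record and not levels of the mature microRNA, and a record of so few bases gives a large FPKM from few reads. The mature sequences (RefSeq, GRCm38.p6) are shown with the seed, bases 2 to 8, in capitals, because both genes with reads give the same seed.
mmu-miR-196a-5p: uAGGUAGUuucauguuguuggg
mmu-miR-196b-5p: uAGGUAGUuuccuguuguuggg
The 2 sequences have 22 bases each and differ at 1 base outside the seed. In the ileum Mir196a-1 was at 0, 0 and 184 FPKM.

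Among 37 other regional and lineage transcription factors 12 were called higher and 8 lower, and without jejunum 24, 13 and 7. Foxd2 was at 16.8, 23.5 and 18.6 FPKM in the large intestine, against 0.0555, 0.0172 and 0.0537 FPKM in the jejunum (log2 difference 4.29, SE 0.14, adjusted p = 4.4e-06). Klf4, a factor of differentiated colonocytes and goblet cells, was at 162, 219 and 174 FPKM in the large intestine, against 34.4, 31.1 and 29.9 FPKM in the jejunum (log2 difference 2.49, SE 0.13, adjusted p = 4.3e-05). Atoh1, which sets the secretory fate, had a log2 difference of 1.74. Gata4, which holds the jejunal programme, was at 0.05097, 0.08297 and 0.561 FPKM in the large intestine, against 4.82, 31.5 and 32.5 FPKM in the jejunum (log2 difference -3.93, SE 0.73, adjusted p = 0.01). Gata5 was at 0.164, 0.299 and 0.374 FPKM in the large intestine, against 20.1, 23.3 and 18.04 FPKM in the jejunum (log2 difference -4.07, SE 0.13, adjusted p = 3.9e-06). The large intestine libraries were all below 1 FPKM for Gata4 and Gata5, and jejunum 24 was far below the other jejunum libraries for Gata4 but not for Gata5. Hnf4g was called lower (-2.996), whereas Hnf4a (0.09), Cdx1 (0.99) and Cdx2 (0.42) were not called. Cdx1 was called higher without jejunum 24 (1.18), after quantile normalization (1.03) and with the same sum of FPKM (1.43).

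Stem cell and Wnt target genes had 3 of 23 members called higher and 3 lower, and without jejunum 24, 4 and 3. The median of -0.17 turned to 0.20 with the same sum of FPKM. Olfm4, a marker of small intestinal crypt base cells, was at 0.471, 0.078001 and 0.0499 FPKM in the large intestine, against 335, 376 and 359 FPKM in the jejunum (log2 difference -8.23, SE 0.14, adjusted p = 4.5e-07). Lgr5, the marker of cycling stem cells in both tissues, was at 2.18, 2.21 and 2.04 FPKM in the large intestine, against 7.33, 4.52 and 3.299 FPKM in the jejunum (log2 difference -0.89, SE 0.23, adjusted p = 0.023), below the jejunum in each library by less than the size needed for a call, and was called after quantile normalization (-1.02). Prom1 was at 52.4, 101 and 89.5 FPKM in the large intestine, against 23.7, 20.97 and 20.9 FPKM in the jejunum (log2 difference 1.79, SE 0.24, adjusted p = 0.0021). Of 23 proliferation genes 0 were called either way in the limma test, although 17 had an unadjusted p under 0.05 and 14 an adjusted p under 0.05 at a smaller size. Their median was -0.34 and turned to 0.07 with the same sum. Mki67 was at 20.8, 25.9 and 22.9 FPKM in the large intestine, against 27.9, 24.6 and 21.9 FPKM in the jejunum (log2 difference -0.09, SE 0.12, adjusted p = 0.57). Without jejunum 28, 2 genes of the stem cell list were called higher and 5 lower.

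Cytochromes P450 of families 1 to 4, the first enzymes of drug oxidation, were called higher for 8 of 41 kept members and lower for 14, and without jejunum 24 for 6 and 18. They divided by subfamily. Of 9 Cyp3a genes 5 passed the filter, and of these 4 were called lower and 0 higher, and without jejunum 24, 5 and 0. Cyp3a16, Cyp3a41a, Cyp3a41b and Cyp3a57 did not pass, being under 1 FPKM in jejunum 24 and in the large intestine. Cyp3a16 was at 0.0136, 0.00408 and 0.0118 FPKM in the large intestine, against 0.799, 6.15 and 11.9 FPKM in the jejunum. Cyp3a11, the main intestinal drug-metabolising P450 of mice, was at 0.3005, 0.295 and 0.04802 FPKM in the large intestine, against 34.7, 242 and 457 FPKM in the jejunum (log2 difference -7.03, SE 0.96, adjusted p = 0.0041). Cyp3a25 was at 0.185, 0.0876 and 0.159 FPKM in the large intestine, against 43.8, 151 and 249.8 FPKM in the jejunum (log2 difference -6.71, SE 0.63, adjusted p = 0.0011). Cyp2b10, a target of the receptor CAR, was at 0.1998, 0.0337 and 0.0144 FPKM in the large intestine, against 15.9, 237 and 315 FPKM in the jejunum (log2 difference -6.65, SE 1.17, adjusted p = 0.0091). Jejunum 24 was the lowest jejunum library for Cyp3a11, Cyp3a25 and Cyp2b10 but still far above the large intestine. Cyp1a1, induced through the aryl hydrocarbon receptor, was at 0.569, 0.3897 and 0.967 FPKM in the large intestine, against 9.61, 19.4 and 16.2 FPKM in the jejunum (log2 difference -3.25, SE 0.26, adjusted p = 0.0003), while Ahr itself was not called (0.13). Of 10 kept Cyp2d genes, 7 were called higher and 1 lower. Those called higher include Cyp2d37-ps, a pseudogene by its symbol. Cyp2d34 was at 97.6, 69.6 and 46.6 FPKM in the large intestine, against 0.414, 0.762 and 0.973 FPKM in the jejunum (log2 difference 5.35, SE 0.27, adjusted p = 5.5e-05). Cyp2d10 was at 15.6, 8.44 and 6.55 FPKM in the large intestine, against 0.196, 0.515 and 0.723 FPKM in the jejunum (log2 difference 2.86, SE 0.30, adjusted p = 0.00089). Cyp2d26 was the 1 called lower, at 8.01, 8.24 and 9.04 FPKM in the large intestine, against 54.6, 147 and 187 FPKM in the jejunum (log2 difference -3.62, SE 0.45, adjusted p = 0.0025). Cyp2d and Cyp3a genes are close copies, so reads can be split among them. Of 8 kept Cyp2c genes only Cyp2c55 was called, at 242, 566 and 729 FPKM in the large intestine, against 39.8, 80.1 and 131 FPKM in the jejunum (log2 difference 2.61, SE 0.58, adjusted p = 0.017). Cyp2c29 and Cyp2c66 were not called as deposited (-4.21 and -3.17), and were called lower without jejunum 24 (-5.71 and -4.30) and under each of the 3 other scalings. Cyp4f14 was at 46.6, 71.3 and 46.2 FPKM in the large intestine, against 224, 349 and 0 FPKM in the jejunum and was not called, and a single 0 beside such values can be a failed estimate. Cyp2c55 was not called without large intestine 25 or 27 or jejunum 27 (log2 difference 2.29 to 2.66, adjusted p = 0.061 to 0.064). The 7 Cyp2d genes called higher were 5 without jejunum 24, and 2 Cyp2d genes were then called lower.

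**Figure D5:**
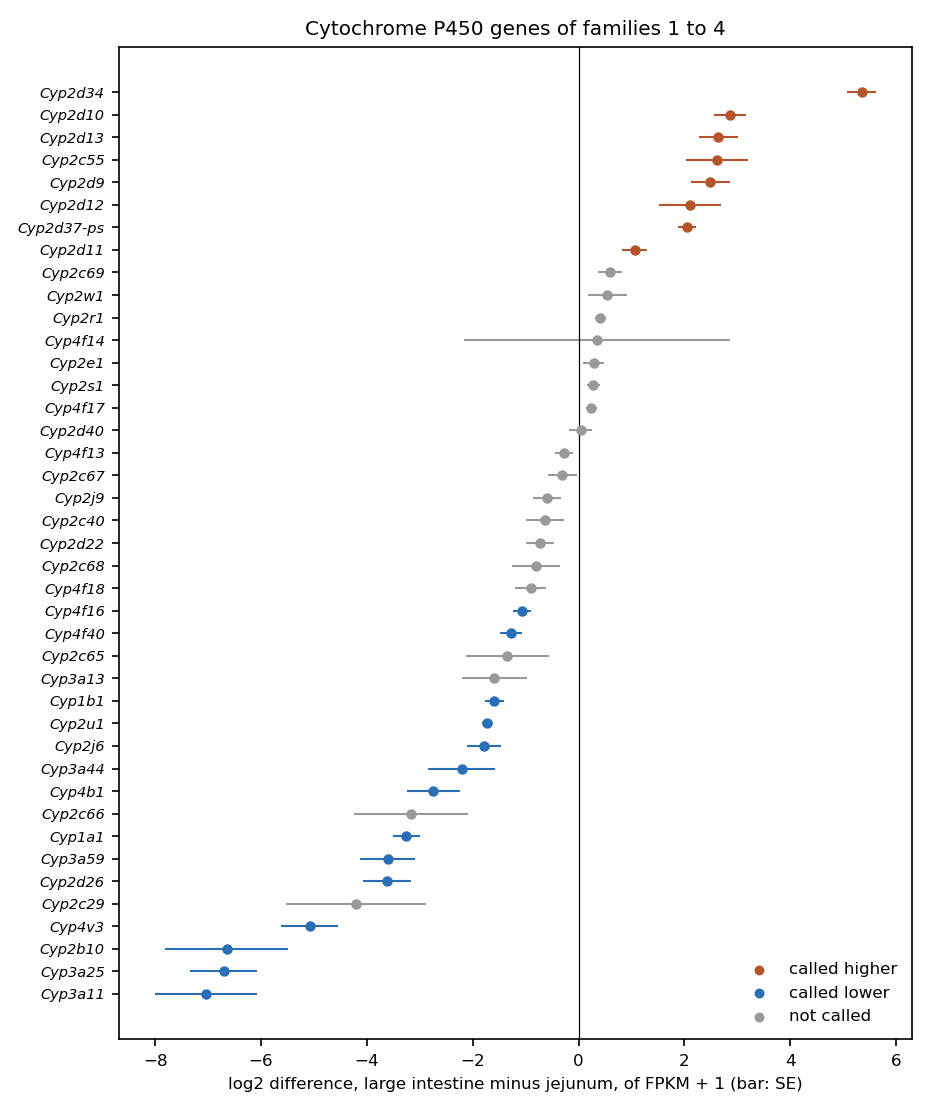
Log2 difference, large intestine minus jejunum, of FPKM + 1 for the 41 kept cytochrome P450 genes of families 1 to 4, with bars of 1 SE from the limma fit on 3 libraries per tissue and colours as called. The points called higher, at the top, are 7 Cyp2d genes and Cyp2c55, and Cyp3a11, Cyp3a25 and Cyp2b10 lie lowest.

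Conjugating enzymes were called in both directions in each family, often on few genes. Over all kept genes 7.59% were called higher and 5.15% lower. Of 10 kept UDP-glucuronosyltransferases 2 were called higher and 3 lower, and without jejunum 24, 1 and 3. Ugt1a6a was at 10.1, 21.4 and 24.1 FPKM in the large intestine, against 2.11, 1.12 and 1.19 FPKM in the jejunum (log2 difference 2.92, SE 0.33, adjusted p = 0.0013). Ugt1a1, which conjugates bilirubin, was at 5.37, 10.1 and 16.6 FPKM in the large intestine, against 35.4, 90.9 and 114 FPKM in the jejunum (log2 difference -2.76, SE 0.57, adjusted p = 0.014). Ugt1a genes share their last exons, so the counting could split reads between them. Ugt2a3 was at 0.856, 1.05 and 0.829 FPKM in the large intestine, against 9.81, 63.04 and 71.5 FPKM in the jejunum (log2 difference -4.27, SE 0.76, adjusted p = 0.0088). Of 6 kept sulfotransferases 2 were called higher and 1 lower, and without jejunum 24, 2 and 2. Sult1a1, for phenols, was at 143, 159.9 and 175 FPKM in the large intestine, against 5.38, 4.17 and 2.94 FPKM in the jejunum (log2 difference 4.98, SE 0.18, adjusted p = 1e-05), and Sult1c2 was called higher too (3.05). Sult2b1, for cholesterol, was called lower (-2.08). Of 23 kept glutathione transferases 1 was called higher and 3 lower, and without jejunum 24, 1 and 5. Gsta1 was at 6.604, 7.92 and 9.05 FPKM in the large intestine, against 28.3, 98.6 and 184 FPKM in the jejunum (log2 difference -3.21, SE 0.67, adjusted p = 0.015). Gstm2 was at 42.3, 38.97 and 37.3 FPKM in the large intestine, against 12.3, 15.98 and 19.9 FPKM in the jejunum (log2 difference 1.27, SE 0.16, adjusted p = 0.0016). Of 11 kept carboxylesterases 2 were called higher and 2 lower, and without jejunum 24, 1 and 4. Ces2e, an ester hydrolase of enterocytes, was at 62.3, 96.2 and 79.96 FPKM in the large intestine, against 267, 440.4 and 558 FPKM in the jejunum (log2 difference -2.35, SE 0.29, adjusted p = 0.0016). Ugt1a1 lost its call without jejunum 27 (log2 difference -2.59, adjusted p = 0.065). Gsta1 was not called without large intestine 25 or 27 or jejunum 27 (log2 difference -3.31 to -3.07, adjusted p = 0.051 to 0.072). The number of glutathione transferases called lower was 1 without jejunum 27 or without large intestine 25, and that of carboxylesterases 1 without jejunum 27, large intestine 25 or large intestine 27.

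Of 34 alcohol, aldehyde and carbonyl enzymes 6 were called higher and 9 lower, and without jejunum 24, 7 and 10. Adh6a was at 0.311, 0.0979 and 0.0836 FPKM in the large intestine, against 13.1, 175 and 274 FPKM in the jejunum (log2 difference -6.24, SE 1.16, adjusted p = 0.011). Aldh1b1, a mitochondrial aldehyde dehydrogenase, was at 82.3, 78.6 and 84.3 FPKM in the large intestine, against 347, 312 and 260.3 FPKM in the jejunum (log2 difference -1.88, SE 0.13, adjusted p = 0.00011). Among the aldehyde dehydrogenases 6 of 17 were lower and 2 higher, and without jejunum 24, 7 and 2. Akr1b8, an aldo-keto reductase, was at 43.95, 69.2 and 64.9 FPKM in the large intestine, against 4.79, 5.21 and 4.51 FPKM in the jejunum (log2 difference 3.35, SE 0.17, adjusted p = 4.2e-05). Cbr3, a carbonyl reductase, had a log2 difference of 3.11. The efflux pumps had 2 of 21 members called higher and 4 lower, and without jejunum 24, 3 and 4. These counts and those of the transporters below are small, beside 7.59% of all kept genes called higher and 5.15% lower. Abcc2, which exports conjugates into the lumen, was at 0.392, 0.307 and 0.543 FPKM in the large intestine, against 20.6, 50.6 and 63.1 FPKM in the jejunum (log2 difference -4.88, SE 0.40, adjusted p = 0.0005). Abcc3, which exports them to the blood side, was at 36.7, 46.5 and 48.1 FPKM in the large intestine, against 12.2, 15.1 and 17.8 FPKM in the jejunum (log2 difference 1.49, SE 0.16, adjusted p = 0.00078). Neither gene had overlapping groups. Abcb1a, P-glycoprotein, was not called, at 68.9, 91.4 and 85.5 FPKM in the large intestine, against 58.6, 32.1 and 47.002 FPKM in the jejunum (log2 difference 0.85, SE 0.23, adjusted p = 0.025), and was called higher without jejunum 24 (1.05) and with the same sum of FPKM (1.29). Abcg2, the breast cancer resistance protein, was not called (-0.57). Of 13 kept organic ion transporters 1 was called higher and 2 lower, the lower ones being Slc22a4, an ergothioneine carrier (-3.17), and Slco2b1, an anion uptake carrier (-1.27, not called with the same sum). Without jejunum 24 the counts were 1 and 3. Of 21 nuclear receptors and partners 2 were called higher, Pparg and Rarg, and 3 lower, without jejunum 24, 2 and 4, and without large intestine 24, 2 and 1. Nr1i3, the receptor CAR, was at 1.32, 1.04 and 0.709 FPKM in the large intestine, against 3.57, 21.9 and 24.9 FPKM in the jejunum (log2 difference -2.79, SE 0.70, adjusted p = 0.026). Nr1i2, the receptor PXR, was not called (-0.43). Adh6a lost its call without large intestine 27 or jejunum 27 (log2 difference -6.20 to -5.74, adjusted p = 0.051 to 0.055). Nr1i3 was not called without large intestine 24, 25 or 27 or jejunum 27 or 28 (log2 difference -2.90 to -2.35, adjusted p = 0.06 to 0.097).

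Genes that every cell uses differed little. The list of the nuclear-encoded respiratory chain and ATP synthase was drawn by symbol, which can also take in assembly factors named Ndufaf. None of its 89 kept genes was called, although 13 had an unadjusted p under 0.05 in limma, and without jejunum 24, 1 was lower. Their median was 0.06 as deposited, -0.09 after median-of-ratios scaling and 0.49 with the same sum. Of 91 kept genes of the ribosomal protein list 1 was called higher and 1 lower, with medians of 0.04, -0.10 and 0.48 under the same 3 scales. With the same sum of FPKM 7 of the 91 were called higher and 0 lower. That list was drawn by symbol and also takes in kinases whose symbols begin with Rps6k, which are not ribosomal proteins.

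Markers of the muscle wall were higher in the large intestine. Of 20 smooth muscle genes 13 were called higher and 0 lower, and the number was 17 without jejunum 24, 10 after median-of-ratios scaling and 18 with the same sum. It was 8 without jejunum 27, without jejunum 28 or without large intestine 27. Their summed level was 3994 to 5843 FPKM in the large intestine and 1360.3 to 2381 FPKM in the jejunum, highest there in jejunum 24. Cnn1, calponin, was at 262, 285 and 345 FPKM in the large intestine, against 77.4, 41.8 and 63.9 FPKM in the jejunum (log2 difference 2.30, SE 0.23, adjusted p = 0.00068). Actg2, the enteric actin, was at 503, 605 and 811 FPKM in the large intestine, against 216, 112 and 149 FPKM in the jejunum (log2 difference 2.02, SE 0.28, adjusted p = 0.0022). Myh11, smooth muscle myosin, was at 178, 184 and 294 FPKM in the large intestine, against 131, 67.3 and 91.2 FPKM in the jejunum (log2 difference 1.19, SE 0.29, adjusted p = 0.02). The groups did not overlap for these 3, and large intestine 27 was the highest library. Of 12 fibroblast markers 4 were called higher and 0 lower, 8 without jejunum 24, and 2 after median-of-ratios scaling or without jejunum 27, jejunum 28 or large intestine 27. Dpt, dermatopontin, was at 65.8, 61.6 and 87.8 FPKM in the large intestine, against 44.8, 23.1 and 21.6 FPKM in the jejunum (log2 difference 1.30, SE 0.29, adjusted p = 0.015). Of 25 kept collagens 3 were called higher and 1 lower, without jejunum 24, 10 and 1, without large intestine 25, 5 and 1, and without jejunum 28, 2 and 2. Col8a1 was at 5.61, 12.2 and 12.2 FPKM in the large intestine, against 0.555, 0.341 and 0.414 FPKM in the jejunum (log2 difference 2.87, SE 0.28, adjusted p = 0.00059), and Col6a4, the 1 called lower, at 1.73, 1.902 and 2.96 FPKM in the large intestine, against 13.4, 11.9 and 7.64 FPKM in the jejunum (log2 difference -1.89, SE 0.23, adjusted p = 0.0013). Kit and Ano1, which mark the pacemaker cells of Cajal, were called higher (1.59 and 2.79), and both are also expressed in epithelium. Of 15 neuronal genes 2 were called higher and 0 lower, and 0 of 5 glial genes and 0 of 10 endothelial genes were called by limma, of which 3 and 5 had an unadjusted p under 0.05. Without jejunum 24 or without large intestine 24, 3 neuronal and 1 glial gene were called higher, and without large intestine 27, 1 neuronal and 0 glial genes. How far the share of muscle and stroma in the samples bears on the other results was not tested. Myh11 lost its call without large intestine 27 or jejunum 27 or 28 (log2 difference 0.96 to 1.17, adjusted p = 0.053 to 0.063). Dpt was not called without large intestine 27 or jejunum 27 (log2 difference 1.15 to 1.16, adjusted p = 0.055 to 0.059).

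Colonocyte markers were called higher for 7 of 10 kept members, 8 without jejunum 24, and villus enterocyte markers lower for 8 of 8, and the 8 largest differences called higher among genes above 0 in every library included genes that none of the lists of function held. Sycn, syncollin, which is known from pancreatic granules, was at 849, 381 and 295 FPKM in the large intestine, against 2.02, 1.83 and 2.27 FPKM in the jejunum (log2 difference 7.24, SE 0.38, adjusted p = 0.00011). Sval1 was at 634, 378 and 179 FPKM in the large intestine, against 3.67, 0.748 and 0.209 FPKM in the jejunum (log2 difference 7.35, SE 0.67, adjusted p = 0.00099). Nov, a secreted matrix protein, was at 109.7, 257 and 232 FPKM in the large intestine, against 1.203, 0.844 and 0.564 FPKM in the jejunum (log2 difference 6.67, SE 0.34, adjusted p = 8.2e-05). All 3 were above 100 FPKM in each large intestine library and at or below 3.67 FPKM in the jejunum. Of 17 pancreatic acinar markers 5 passed the filter, and 2 were called higher and 2 lower. Cela1, an elastase, was at 167, 98.4 and 78.96 FPKM in the large intestine, against 3.48, 3.57 and 5.35 FPKM in the jejunum (log2 difference 4.44, SE 0.29, adjusted p = 0.00017), and Clps, colipase, at 105, 34.9 and 39.2 FPKM in the large intestine, against 353, 392 and 356 FPKM in the jejunum (log2 difference -2.78, SE 0.41, adjusted p = 0.0035). Of 13 hepatocyte markers 4 passed and 2 were called higher, Tat (2.82) and Ttr (1.38). Ttr lost its call without large intestine 25 or jejunum 27 or 28 (log2 difference 1.24 to 1.402, adjusted p = 0.063 to 0.075).

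Some genes were seen in 1 of the tissues. Called genes listed at 0 in all 3 jejunum libraries numbered 7, and those listed at 0 in all 3 large intestine libraries numbered 3. An exact 0 in such a table can be a failed estimate, so these are listings and not proof of absence. Mir1906-2, Mir196a-1 and Hoxa11as were the 3 highest of the 7. Hoxa11as, antisense to Hoxa11, was at 70.0, 66.9 and 59.6 FPKM in the large intestine, and whether the counting used strand is not given in the sources used here, so its reads and those of Hoxa11 cannot be told apart. The 3 listed at 0 in the large intestine were Dao, Reg3d and Tmem89, of which Dao, D-amino acid oxidase, was at 2.199, 8.17 and 9.41 FPKM in the jejunum. The most abundant genes of the large intestine by mean were Mir3064, Mptx1, Zg16, Lypd8 and Guca2a. Mir3064 is a short microRNA record, for which few reads give a large FPKM, so its rank is not a measure of abundance. Those of the jejunum were the alpha-defensins Defa24, Defa23, Gm15284, Defa3 and Defa17. Mptx1, a pentraxin, was at 14602, 362 and 38.03 FPKM in the large intestine, against 12.2, 27.7 and 18.2 FPKM in the jejunum (log2 difference 4.93, SE 2.27, adjusted p = 0.15), with nearly all of its large intestine level in library 24.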

How the data were processed

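TruSeq RNA libraries were made from total RNA of the sections, per the labels' protocols. Per the submitters' processing notes, reads were handled with CASAVA, FastQC, TopHat2 2.0.3, Bowtie 0.12.8, SAMtools 0.1.18 and Cufflinks 2.0.0 on mm10, and the authors deposited 1 table of FPKM values for 23845 records in 15 libraries. FPKM is relative to length and to mapped fragments, so a few very abundant transcripts lower all others in their library. Read counts, the strand setting and the depth of each library are not given in the sources used here, so no counting interval could be given. Of the records, 27 had symbols turned into dates by a spreadsheet. They entered the fits and are not named.

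Rows sharing a symbol were summed (754 records), which gave 23349 genes, and a gene was kept where 3 or more of the 6 libraries had 1 FPKM or more, which left 13057. Values were tested as log2(FPKM + 1) with limma 3.58.1 in R 4.3.3 (empirical Bayes with trend and robust settings, two-sided, Benjamini-Hochberg adjustment over all 13057 genes), and the fit was tested on simulated data. All adjusted p-values are from that test. A call needed an adjusted p under 0.05 and a log2 difference of at least 1 in size. Groups came from the titles. Samples of a tissue were grouped as labelled, jejunum 24 included.

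The comparison, the gene lists and the rule for named genes were chosen with earlier results of these data known. The rule took the 8 largest called differences each way among genes above 0 in all 6 libraries, per list the most different member called in each direction, 50 kept genes of a written set, the 5 most abundant genes of each tissue, and called genes listed at 0 in a whole tissue with the 3 largest named, 134 genes in all. The other members named with values were chosen after their values were seen. Some genes are not reported here. Promoter and microRNA sequences are from RefSeq (GRCm38.p6), matched by symbol. Alternatives were other scalings, pseudocounts, filters, models, a replicate block and leaving out each library.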

Additional observations from a re-analysis of the deposited data

How the results depend on the processing

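Over the alternatives below other than the last the number of called genes ran from 1257 to 2447, against 1663. The number called higher moved most with the same sum of FPKM, to 1963, while the number called lower was then 484. With 1 library left out in turn the called genes numbered 1432 to 2005, those higher 853 to 1231 and those lower 556 to 774. Without trend or robust settings there were 1676 calls, with all 15 libraries in the fit 1687, without short RNAs 1668, with rows of a symbol kept apart 1696, without a filter 1696, at a filter of 5 FPKM 1300 and at a pseudocount of 0.1 2130. Of 401 called genes that belong to a list or are named, 328 were called in every fit with 1 library left out, 73 lost their call in at least 1 and 0 turned direction.

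The titles share numbers 24 and 27 between the tissues. Deviations from the tissue means correlated at 0.08 for the libraries numbered 24 and at 0.06 for those numbered 27. Jejunum 28 with large intestine 25 gave 0.07, and the remaining pairs gave -0.06 to 0.01. Deviations cancel out within a tissue, so these pairs are not independent and cannot decide whether a number names an animal. No label says that it does, so the main fit held no block. A replicate block left 1257 calls in the 6 libraries, 702 higher and 555 lower, and 1598 with all 15 libraries. In the 6 libraries 52 of 134 named genes lost their call under the block, which leaves fewer degrees of freedom.

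An alternative chosen after seeing the data left out jejunum 24 and used median-of-ratios scaling together, and gave 916 genes higher and 960 lower. Under it the Pigr log2 difference, 0.38 as deposited and not called, was -0.0081 (adjusted p = 0.98). The depth of the libraries is unknown and values near 0 FPKM cannot be told from failed estimates.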

Other observations

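Genes outside the lists were read after their values were seen, so no count of them is a test. Several enzymes that handle sulfide and cysteine were called higher in the large intestine. Ethe1, a mitochondrial sulfur dioxygenase, was at 201, 296 and 258 FPKM in the large intestine, against 18.9, 12.7 and 13.1 FPKM in the jejunum (log2 difference 3.99, SE 0.20, adjusted p = 3.7e-05). Selenbp1, known in people as a methanethiol oxidase, was at 537, 520.3 and 478 FPKM in the large intestine, against 39.9, 28.9 and 25.5 FPKM in the jejunum (log2 difference 4.01, SE 0.17, adjusted p = 1.4e-05). Cbs, cystathionine beta-synthase, which can make hydrogen sulfide, was at 23.5, 29.1 and 35.5 FPKM in the large intestine, against 1.26, 0.671 and 0.56003 FPKM in the jejunum (log2 difference 4.05, SE 0.19, adjusted p = 2.9e-05). The groups were far apart for all 3. Some genes better known from stratified epithelia were called higher too, although of 9 markers of squamous and anal epithelium 2 passed the filter and 0 were called by limma, with 0 at an unadjusted p under 0.05. Tgm3, a transglutaminase of the epidermis, was at 178, 60.7 and 21.4 FPKM in the large intestine, against 0.0296, 0.01604 and 0.0191 FPKM in the jejunum (log2 difference 5.94, SE 0.74, adjusted p = 0.0027). Gsdmc2, of the gasdermin C cluster, was at 459, 139 and 157 FPKM in the large intestine, against 26.1, 22.5 and 12.7 FPKM in the jejunum (log2 difference 3.40, SE 0.53, adjusted p = 0.0052), and its near copy Gsdmc4 had a log2 difference of 3.41, so reads may be split between them. Serpinb5, maspin, had a log2 difference of 4.13. Large intestine 24 was the highest library for Tgm3 and Gsdmc2. Fa2h, which makes hydroxylated sphingolipids, was at 30.4, 41.1 and 36.96 FPKM in the large intestine, against 0.226, 0.0544 and 0.0728 FPKM in the jejunum (log2 difference 5.05, SE 0.13, adjusted p = 2.7e-06). S100a6 was at 1338, 1425 and 1263 FPKM in the large intestine, against 138, 65.03 and 53.8 FPKM in the jejunum (log2 difference 4.07, SE 0.34, adjusted p = 0.00038). Abo, a glycosyltransferase of the ABO blood group locus, was at 6.36, 8.52 and 7.87 FPKM in the large intestine and was listed at 0 in all 3 jejunum libraries.

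Some genes outside the lists were called lower in the large intestine. Cps1, the carbamoyl phosphate synthetase of citrulline and urea synthesis, was at 1.13, 0.303 and 0.156 FPKM in the large intestine, against 133, 154 and 151 FPKM in the jejunum (log2 difference -6.63, SE 0.23, adjusted p = 1e-05). Enpp7, the alkaline sphingomyelinase of the brush border, was at 0.258, 0.0159 and 0 FPKM in the large intestine, against 73.5, 222 and 159 FPKM in the jejunum (log2 difference -6.997, SE 0.40, adjusted p = 0.00015). Lgals2, a galectin, was at 6.798, 4.09 and 3.78 FPKM in the large intestine, against 1661, 1712 and 1541 FPKM in the jejunum (log2 difference -8.15, SE 0.19, adjusted p = 1.5e-06). Jejunum 24 was the lowest jejunum library for Cps1 and Enpp7. Leap2, which encodes an antagonist of the ghrelin receptor, was at 0.0547, 0 and 0 FPKM in the large intestine, against 13.3, 129.7 and 162 FPKM in the jejunum (log2 difference -6.05, SE 0.97, adjusted p = 0.0069). Prap1 and Dnase1 had log2 differences of -6.70 and -6.33.

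The large intestine libraries differed among themselves in a set of genes. Among 6494 genes that reached 10 FPKM in a large intestine library, 26 were more than 4-fold above both others in library 24, against 5 in library 25 and 4 in library 27, and 3, 4 and 8 were as far below both others in libraries 24, 25 and 27. Those above in library 24 included Mptx1, at 14602, 362 and 38.03 FPKM, and Ang4, at 2155, 182 and 86.4 FPKM, in libraries 24, 25 and 27. Atp12a, the colonic proton-potassium pump, was at 28.3, 2.32 and 0.388 FPKM, and Hoxd13, the last gene of its cluster, at 2.60, 0.355 and 0.169 FPKM. In the jejunum, among 6389 such genes, 25 were more than 4-fold above both others in library 24, 4 in library 27 and 0 in library 28, and 49 were as far below both others in library 24, 6 in library 27 and 12 in library 28.

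Single zeros stood beside high values. There were 20 such genes, with 1 value of 0 beside 2 of at least 10 FPKM in a tissue, of which 15 were short RNAs and 5 were not, and 0 of the 20 were called. Ceacam1 was at 635, 0 and 772 FPKM in the large intestine, and Myh14 at 79.9, 0 and 66.8 FPKM in the jejunum.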
